A study of Canis lupus familiaris with 10 samples.

Results

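The genes described here are 45 canine genes of lysosomal hydrolases and lysosomal membrane proteins, measured in early and late canine cutaneous histiocytoma (CCH). The members were taken from a fixed list of gene symbols, matched to the gene column of the deposited table with no filter on change. All 45 symbols were found among the 23266 genes of the table, and all 45 passed the filter on low values, a normalized read count of at least 10 in at least 5 libraries, as did 12397 genes in all. By role the list holds 9 cathepsins and other proteases, 9 membrane proteins, 11 glycosidases, 5 sulfatases, 7 genes of lipid and sphingolipid handling, and a remaining 4 genes, which are acid phosphatases, progranulin and the transcription factor TFEB.

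Lysosomes are acidic organelles in which hydrolases break down proteins, sugar chains, lipids and nucleic acids delivered by endocytosis, phagocytosis and autophagy. Most of the soluble enzymes are made as precursors, are tagged with mannose 6-phosphate in the Golgi and mature in the acidic lumen, and many of their genes can be induced together by TFEB and its relatives of the MiT/TFE family. Macrophages and dendritic cells are rich in lysosomes, which digest engulfed material and process antigen for presentation, and loss of a single lysosomal enzyme is the usual cause of a storage disease.

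CCH is a benign skin tumor of dogs, derived from cells of the Langerhans type, that usually regresses while lymphocytes enter it. QuantSeq 3′ RNA-Seq was run on formalin-fixed, paraffin-embedded (FFPE) tumors from a pathology archive, taken from pet dogs of several breeds that differed between the samples except for French Bulldogs, and no genetic modification or treatment is given for either group. The early group holds 5 tumors of group 1 in the staging of Cockerell and Slauson, from dogs aged 0.5 to 5 years where an age is given, and the late group holds 5 tumors of group 3, labeled as enriched in lymphocytes, from dogs aged 1.5 to 9 years. The DV200 value, the percentage of RNA fragments longer than a set length, was 64.5 to 71.2% in the early and 71.2 to 75.8% in the late samples. According to the study's sample list, every late block had been stored longer than every early block and the library indices of the stages came from separate series, so storage, library set and stage cannot be told apart. The samples are whole cross sections of tumors, in which fewer cells of a type and less RNA per cell cannot be told apart.

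The early libraries held 3132916 to 4439709 reads on genes and the late libraries 2973125 to 3230455, and 16294 to 16986 genes had at least 1 read. Library numbers serve as names only. Langerhans and dendritic cell markers were present in both stages, with a summed normalized read count of 2994 to 5299 in the early and 1813 to 2550 in the late libraries, although the gene of langerin, CD207, was not analysed here. The summed T cell markers were 58.1 to 2036 in the early and 3515 to 5483 in the late libraries. Of these 9 markers CD6 passed the test used for the lysosomal genes, against 2.17% of all genes tested. In DESeq2 5 of the 9 were called, against 810 of 12397 genes. With the Benjamini-Hochberg adjustment in limma all 9 were called higher, against 5.53% of all genes tested. All 9 had every late value above every early value, against 5.91% of all genes tested. Between 222 and 9379 counts in the early and 91.0 and 9002 in the late libraries came from neutrophil markers, and keratinocyte markers summed to 919 to 16359 and 660 to 8142. The part of these cell types in the results was not tested.

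The lysosomal genes did not move in one direction between the stages. Cathepsin D and lysosomal acid phosphatase 2 were higher in late CCH, arylsulfatase B and beta-mannosidase were lower, and the other 41 members did not pass the test. The test was limma, fitted over all 12397 genes on log2 of the normalized read count plus 1. A difference passed it when its size, given as log2FC (late minus early), was 1 or more and its p, adjusted after Benjamini-Yekutieli (BY), was 0.05 or less. By this rule 2 of 45 members were called higher and 2 lower (8.89% together), against 2.17% of all genes tested, 1.06% higher and 1.11% lower. The median log2FC of the members was 0.19, with 28 values above and 17 below 0, and that of all genes tested was -0.004. Of the members, 37 lay within 1 log2 unit of 0 and 26 within 0.5. An unadjusted p of at most 0.05 was reached by 17 members (37.8%), 10 of them higher and 7 lower in late CCH, against 30.9% of all genes tested.

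**Figure D1:**
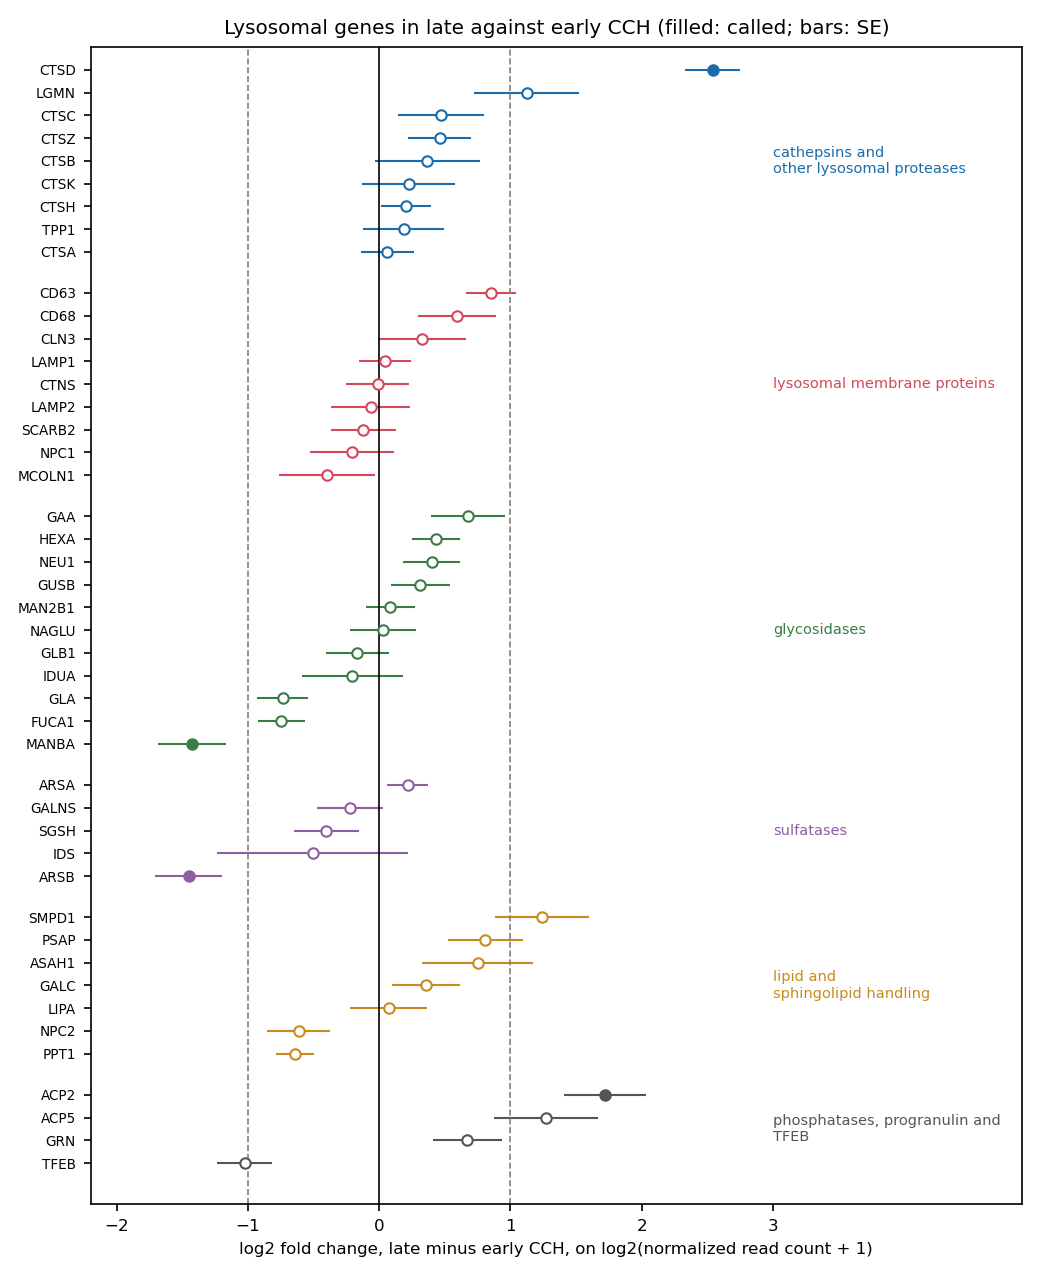
Log2FC (late minus early CCH) of the 45 lysosomal genes by role, with points for the estimate and bars for its standard error; filled points passed the test. CTSD at 2.54 and ACP2 at 1.72 stand highest, ARSB at -1.45 and MANBA at -1.42 lowest, and 37 of the 45 genes lie within 1 log2 unit of 0.

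The proteases held the largest difference among the members. All 9 genes of the group had a log2FC above 0, with a median of 0.37, but 1 of the 9 passed the test. CTSD encodes cathepsin D, the main aspartic protease of lysosomes. Its normalized read count was 342, 472, 310.3, 332 and 380.0 in the early libraries and 2639, 2026, 1254, 2780.3 and 2297 in the late libraries. Every late value was above every early value, with 1254 in the lowest late and 472 in the highest early library. The mean rose from 367 ± 63.6 (SD, n = 5) to 2199 ± 605, which is 5.99-fold (log2FC 2.54, SE 0.21, BY adjusted p = 0.00201, limma). CTSD ranked 1 by p among all 12397 genes, and by mean level among the members it moved from rank 20 in early to rank 6 in late CCH. It stayed called when any of the 10 libraries was left out, with BY adjusted p between 0.000215 and 0.0124 (limma).

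The other proteases differed by less. Legumain (LGMN) is an asparaginyl endopeptidase that also processes cathepsin precursors. The LGMN values were 366, 1241, 251, 203 and 280.2 in the early libraries and 1156, 646, 776, 662 and 842 in the late libraries. Early library 2 stood above all 5 late libraries, whereas the other 4 early libraries stood below all of them. Its log2FC of 1.12 (SE 0.40) had an adjusted p of 0.762 (BY, limma), and without early library 2 it was 1.56 with a BY adjusted p of 0.0204, which passes the test. LGMN was called in only this 1 of the 10 fits that left out a library. It was not called in edgeR, and DESeq2 gave it no adjusted p.

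Cathepsin H (CTSH), an aminopeptidase of the papain family, was among the most abundant members, at 3163, 3994, 2206, 2651 and 2304 in early and 2747, 3189, 2664, 4000.2 and 3712 in late CCH, and the stages overlapped (log2FC 0.21, SE 0.19). CTSA, the protective protein that keeps beta-galactosidase and neuraminidase stable, had the lowest log2FC of the proteases at 0.06 (SE 0.20), with means of 1502 ± 438 and 1531 ± 244. The cysteine proteases CTSB, CTSC, CTSK and CTSZ and the tripeptidyl peptidase TPP1 had log2FC values of 0.37, 0.47, 0.23, 0.46 and 0.19. In CTSB the spread within the early stage, from 921 to 5730.4, was wider than the whole late range of 1959 to 3673.

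**Figure D2:**
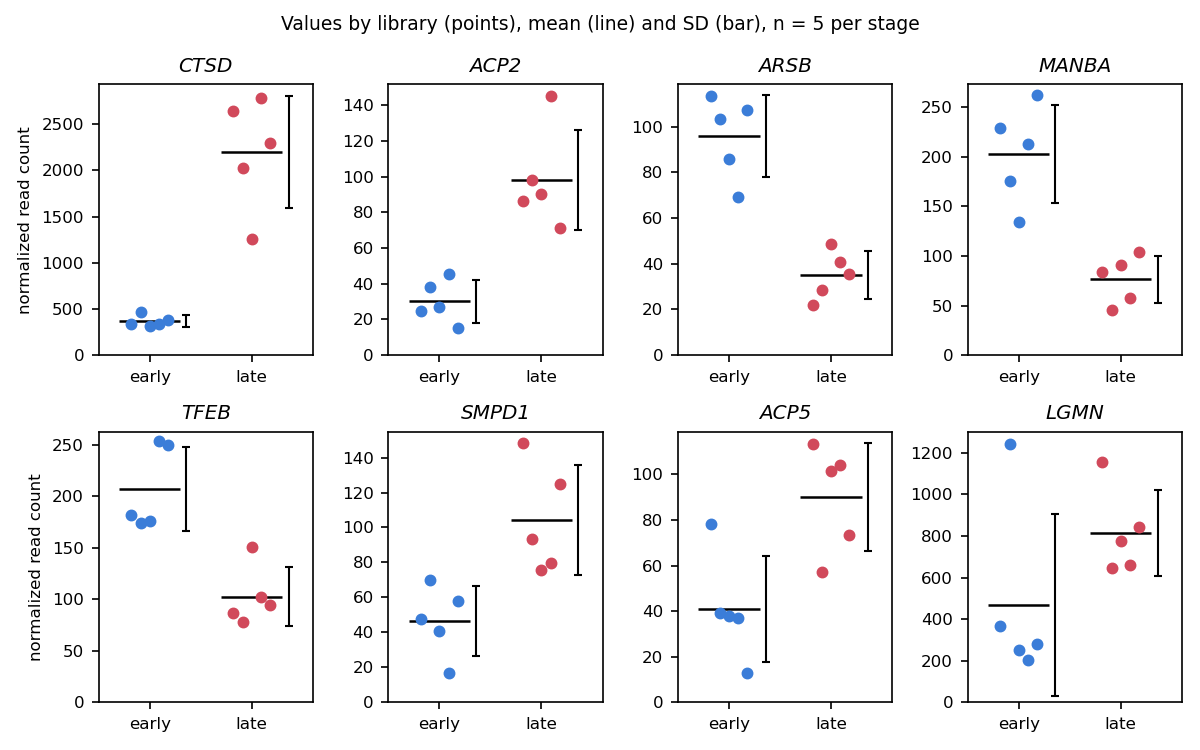
Normalized read count in each library (points), with the mean (line) and SD (bar) of 5 early and 5 late CCH libraries, for the 4 genes that passed the test (upper row) and TFEB, SMPD1, ACP5 and LGMN (lower row). The stages do not overlap in the upper row nor for TFEB and SMPD1, while in ACP5 and LGMN 1 early library lies within or above the late values.

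Acid phosphatase 2, encoded by ACP2, is a membrane-anchored enzyme that is cleaved into a soluble form in the lysosome. Its values were 24.8, 38.1, 27.1, 45.7 and 15.0 in the early libraries and 86.5, 98, 90.1, 145 and 71.3 in the late libraries. The stages did not overlap. The mean rose from 30.1 ± 12 to 98.2 ± 28.0, which is 3.26-fold (log2FC 1.72, SE 0.31, BY adjusted p = 0.0485, limma). The call was close to the threshold: of the 10 fits that left out a library it held in 1, the fit without early library 4, with BY adjusted p between 0.0423 and 0.169. In the RefSeq table of a later dog assembly, ACP2 has NR1H3, which encodes the oxysterol receptor LXR alpha, and the DNA repair gene DDB2 (log2FC -0.65, not called) within 2 kb. NR1H3 was at 16.2, 43.7, 20.8, 29.9 and 8.59 in early and 390, 139, 54.2, 494 and 232 in late CCH, and passed the test as well (log2FC 3.22, SE 0.57, BY adjusted p = 0.0454, limma). Since genes were extended downstream during counting and the strand setting is not stated, the assignment of reads between ACP2 and NR1H3 is uncertain. ACP2 was above NR1H3 in late library 3 (90.1 against 54.2) and in early libraries 1, 3, 4 and 5, and below it in the other libraries. Whether reads were misassigned was not tested. CTSD has IFITM10 and an uncharacterized gene without a value here within 2 kb, and the mean of IFITM10 was 25.6 ± 20.9 in early and 64.3 ± 31.7 in late CCH, far below that of CTSD.

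ACP5 encodes tartrate-resistant acid phosphatase, an enzyme of osteoclasts and activated macrophages. It was at 78.1, 39.1, 38.0, 37.0 and 12.9 in early and 113, 57.1, 102, 104 and 73.4 in late CCH. Early library 1 lay within the late range, and the gene did not pass the test (log2FC 1.27, SE 0.40, BY adjusted p = 0.47, limma). Progranulin (GRN), a secreted and lysosomal glycoprotein that is cut into granulins, was the second most abundant member. Its values were 2123, 5004, 1842, 2178 and 1923 in early and 4465, 2896, 3268, 4757 and 4184 in late CCH. Early library 2 had the highest value of all 10 libraries and the other 4 early libraries lay below every late one, with a log2FC of 0.67 (SE 0.26).

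TFEB, a master regulator of lysosomal genes, was lower in every late library than in any early one. The values were 182, 174, 176, 254 and 250.1 in the early and 86.5, 78.0, 151, 102 and 94.4 in the late libraries, with means of 207 ± 40.9 and 102 ± 28.6. At a log2FC of -1.03 (SE 0.21), TFEB had an adjusted p of 0.0797 (BY, limma) and was not called, nor was it in edgeR, while DESeq2 called it (BY adjusted p = 0.00476). Under the Benjamini-Hochberg (BH) adjustment its p was 0.00797, and without late library 3 the BY adjusted p was 0.0375, both of which pass the test. TFEB was called in 1 of the 10 fits that left out a library, with BY adjusted p up to 0.241 (limma). With the libraries scaled to equal totals the log2FC of TFEB was -0.94. The log2FC of TFEB thus had the opposite sign to those of CTSD and ACP2, and the same sign as those of ARSB and MANBA. The activity of TFEB, which depends on its transport into the nucleus, was not measured.

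Among the sulfatases, 1 of 5 genes passed the test and 4 of 5 had a log2FC below 0, with a median of -0.40. ARSB encodes arylsulfatase B, which removes sulfate from dermatan and chondroitin sulfate. It was at 113, 103, 85.9, 69.3 and 107 in the early and 21.9, 28.5, 48.4, 40.9 and 35.7 in the late libraries. The stages did not overlap. The mean fell from 95.8 ± 18.0 to 35.1 ± 10.4, so that early CCH was 2.73-fold higher (log2FC -1.45, SE 0.26, BY adjusted p = 0.0462, limma). The call held in 2 of the 10 fits that left out a library, those without early library 4 and without late library 3, with BY adjusted p between 0.0396 and 0.143. Arylsulfatase A (ARSA), which acts on sulfatide, had means of 143 ± 18.3 and 166 ± 19.3 and the highest log2FC of the group, 0.22 (SE 0.16). For IDS, the iduronate sulfatase, early library 1 at 95.2 stood far from the other early values of 1606 to 2915, and the late values were 599 to 1068. The log2FC of IDS was -0.51 with an SE of 0.73, the widest of the 45 members, and without early library 1 it was -1.38 (BY adjusted p = 0.0572, limma), still not called. GALNS and SGSH had log2FC values of -0.22 and -0.40.

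Among the 11 glycosidases, 1 gene passed the test, 6 had a log2FC above 0 and 5 below, and the median was 0.03. MANBA encodes beta-mannosidase, which takes the last mannose from N-linked sugar chains. Its values were 228, 176, 134, 213 and 262 in the early and 83.5, 45.7, 91.0, 57.3 and 104 in the late libraries. The stages did not overlap, with the lowest early value at 134 and the highest late value at 104. The mean fell from 203 ± 49.3 to 76.3 ± 24.1, so that early CCH was 2.66-fold higher (log2FC -1.42, SE 0.26, BY adjusted p = 0.0492, limma). The call held in 1 of the 10 fits that left out a library, the fit without early library 3, with BY adjusted p between 0.0416 and 0.167. MAN2B1, the lysosomal alpha-mannosidase of the same breakdown route, had a log2FC of 0.09 and means of 660.1 ± 49.1 and 723 ± 217.

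Tissue alpha-L-fucosidase (FUCA1) was the second most abundant member in early CCH, at 2855, 3298, 2731, 3308 and 2257, and ranked 9 in late CCH, at 1501, 1638, 2265, 2015 and 1289. The stages overlapped by a single late library, and the log2FC of -0.75 (SE 0.18, BY adjusted p = 0.155, limma) was under the fold threshold. GLA, the alpha-galactosidase that is deficient in Fabry disease, was lower in every late library than in any early one, with means of 87.3 ± 13.1 and 51.9 ± 6.34 (SE of the log2FC 0.20, BY adjusted p = 0.252, limma). GAA, the acid alpha-glucosidase of lysosomal glycogen breakdown, had the highest log2FC of the group at 0.68 (SE 0.29), with 99.0, 167, 47.0, 106 and 78.4 in early and 152, 116, 155, 177 and 143 in late CCH. HEXA, NEU1, GUSB and NAGLU had log2FC values of 0.43, 0.40, 0.31 and 0.03, and GLB1 and IDUA of -0.17 and -0.20.

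None of the 7 genes of lipid and sphingolipid handling passed the test with the BY adjustment in limma, although 4 of them had an unadjusted p of at most 0.05 and BH called 1, SMPD1. In edgeR and DESeq2 the number called was 0 as well. Over all genes tested, 30.9% had an unadjusted p of at most 0.05, and BH called 5.53% higher and 3.52% lower. Prosaposin (PSAP), the precursor of the saposins that help sphingolipid hydrolases reach their substrates, was the most abundant of the 45 members in both stages. Its values were 3660.4, 7329.8, 2907, 2346 and 4479.9 in early and 8345, 5172, 5167, 8735 and 6967 in late CCH, and the log2FC was 0.81 (SE 0.28, adjusted p = 0.714 with BY, limma). Early library 2 again lay inside the late range while the other 4 lay below it. SMPD1, the acid sphingomyelinase, was at 47.6, 69.8, 40.7, 16.5 and 58.0 in early and 148, 93.2, 75.5, 79.8 and 125 in late CCH. Every late value was above every early value, at a log2FC of 1.24 (SE 0.36), and in limma the p was 0.35 after BY and 0.035 after BH adjustment.

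PPT1, the thioesterase that removes palmitate from proteins, showed the opposite order, at 1691, 2036, 1253, 1344 and 1562 in early and 953, 937, 1015, 1025 and 1065 in late CCH. The late values were close to one another, with an SD of 53.0 around a mean of 999, and all of them lay below the early values. The log2FC of -0.64 (SE 0.15, BY adjusted p = 0.129, limma) was under the fold threshold. NPC2, the soluble carrier that hands cholesterol to NPC1, had a log2FC of -0.61, and the acid ceramidase ASAH1, the galactosylceramidase GALC and the acid lipase LIPA had log2FC values of 0.75, 0.36 and 0.07.

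The membrane proteins differed little: none of the 9 passed the test in limma with either adjustment, in edgeR or in DESeq2. In limma 1 of the 9 had an unadjusted p of at most 0.05, against 30.9% of all genes tested. That gene was CD63, a tetraspanin of late endosomes, lysosomes and secreted vesicles. It was at 1270.0, 1582, 897, 1018 and 940.4 in early and 2013, 2104, 1471, 2694 and 1977 in late CCH, so that early library 2 lay above 1 late library (log2FC 0.85, SE 0.19, BY adjusted p = 0.131, limma). LAMP1 and LAMP2, the heavily glycosylated proteins that line the lysosomal membrane, had means of 2325 ± 733 and 2326 ± 312, and of 1752 ± 908 and 1587 ± 458, with log2FC values of 0.04 and -0.06. CD68, the LAMP relative used as a macrophage marker, was at 333, 378, 159, 217 and 478 in early and 502, 289, 372, 629.9 and 477 in late CCH, and the stages overlapped (log2FC 0.59, SE 0.30). MCOLN1, the calcium channel mucolipin 1, was the least abundant member, at 9.95 to 30.1 in early and 13.3 to 16.5 in late CCH (log2FC -0.40, SE 0.36). CLN3, CTNS, SCARB2 and NPC1 had log2FC values of 0.33, -0.01, -0.12 and -0.21.

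Counted without the fold and p thresholds, 3 members (6.67%) had every late value above every early value, namely CTSD, SMPD1 and ACP2, against 5.91% of all genes tested. In 5 members (11.1%) every late value was below every early value, namely MANBA, GLA, ARSB, PPT1 and TFEB, against 6.05% of all genes tested. With BH in place of BY, 4 members (8.89%) were called higher, ACP2, ACP5, CTSD and SMPD1, against 5.53% of all genes, and 3 (6.67%) were called lower, ARSB, MANBA and TFEB, against 3.52%.

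**Figure D3:**
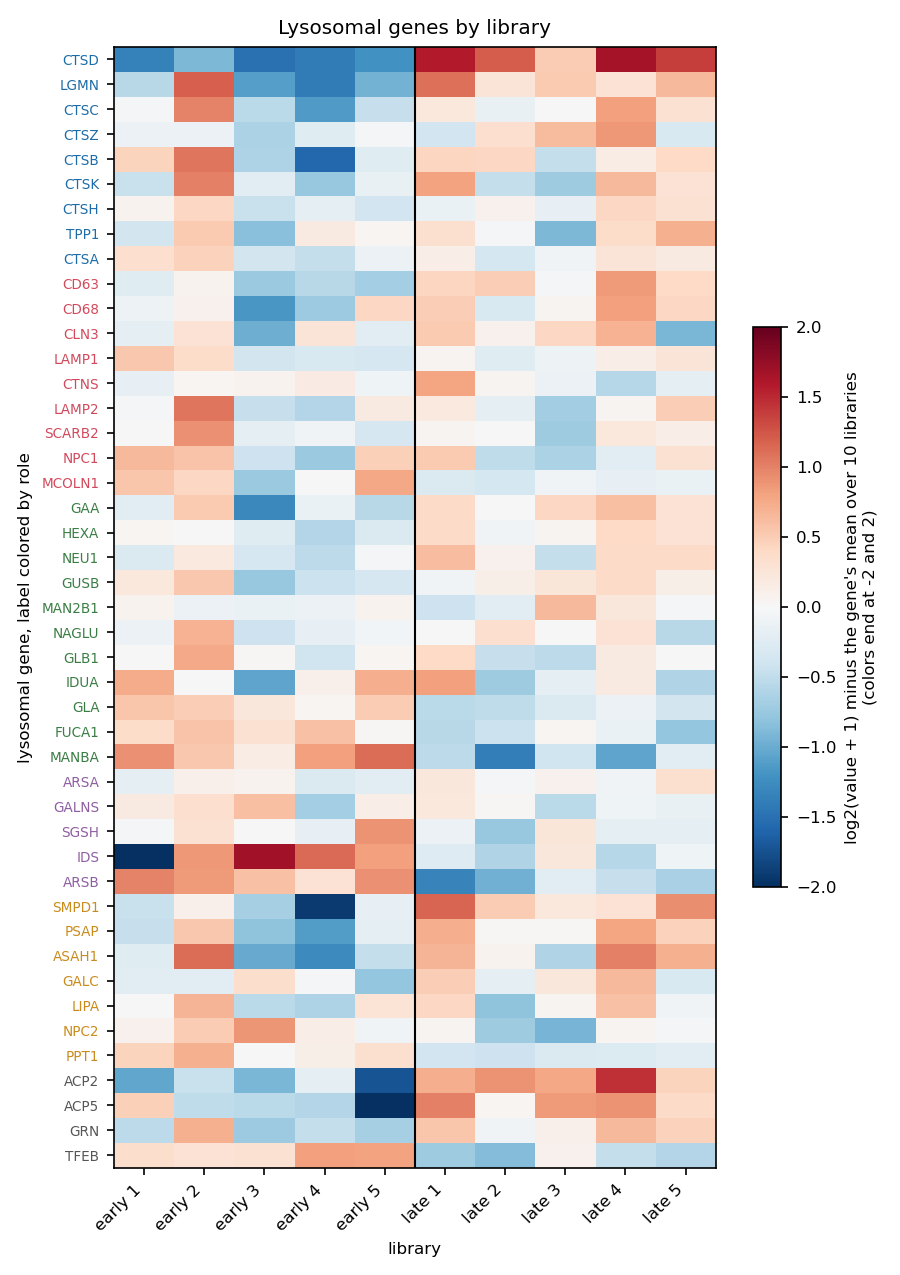
Deviation of each library from the mean of its gene over the 10 libraries, on the scale of log2 of the normalized read count plus 1, for the 45 lysosomal genes (rows, by role) and the 5 early and 5 late CCH libraries (columns). CTSD and ACP2 are below their mean in all early and above it in all late libraries, ARSB and MANBA the reverse, and early library 2 holds the highest early value in 24 of the 45 genes.

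The lysosomal genes as a group were expressed at a high level, since 35 of 45 were above the median of the genes tested and 18 above the 90th percentile of mean normalized read count. QuantSeq 3′ counts fragments at the transcript end, so that these levels do not grow with gene length. Together the members took 1.07, 1.62, 0.872, 0.766 and 0.926% of the reads on genes in the early libraries and 1.42, 1.13, 1.08, 1.52 and 1.36% in the late libraries. The exact (Clopper-Pearson) 95% interval of each share extends by at most 0.0137 percentage points to either side. It treats each read as an independent count and does not cover the spread between tumors. Because the reads were counted without molecular identifiers, it can understate the counting error as well. The mean share was 1.05 ± 0.337% in early and 1.30 ± 0.192% in late CCH, and the difference was smaller than the SD of the early group. Without early library 2 the early mean was 0.909%. The protease share was 0.338 ± 0.149% early and 0.477 ± 0.0759% late, and the glycosidase share 0.149 ± 0.0188% and 0.123 ± 0.0177%.

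**Figure D4:**
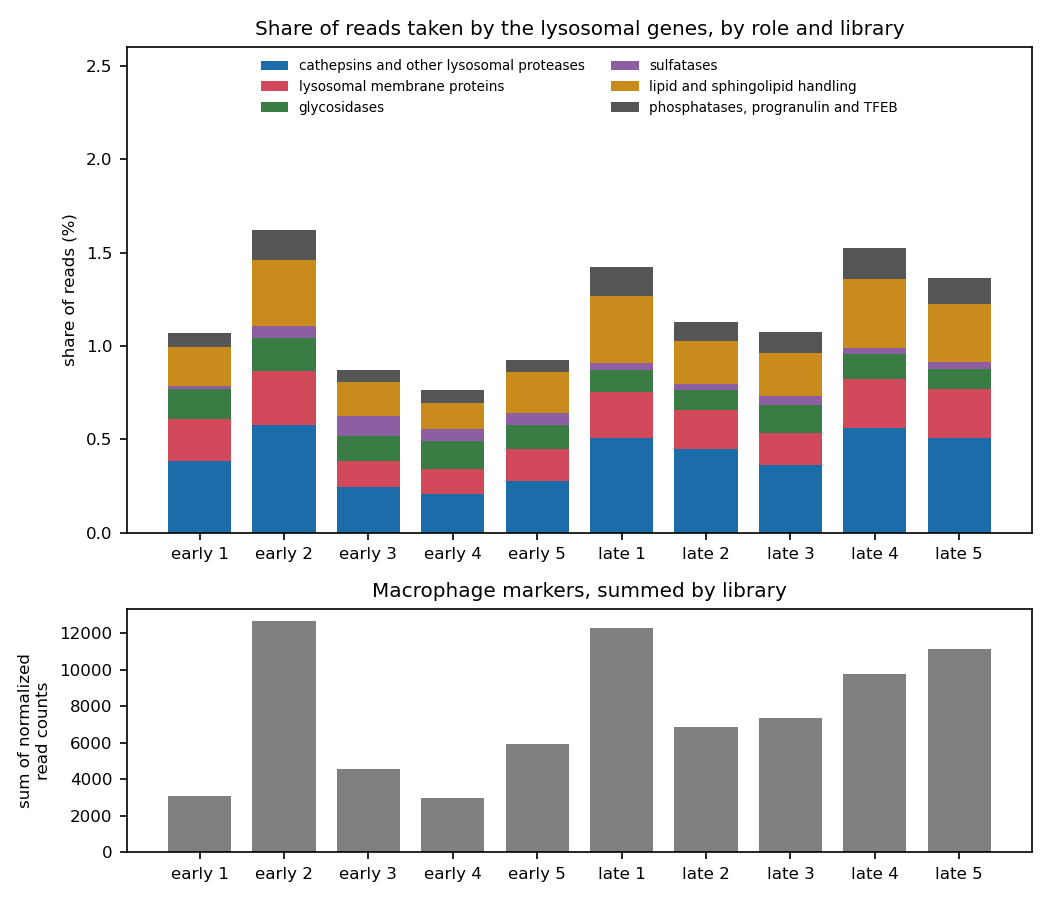
Share of the reads on genes (%) taken by the 45 lysosomal genes in each library, stacked by role (upper panel), and the summed normalized read count of the macrophage markers in the same libraries (lower panel). The share is highest in early library 2 at 1.62%, where the sum of the macrophage markers is also highest at 12665. The late libraries lie between 1.08 and 1.52%.

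Early library 2 stood apart from the other early libraries in these genes. It held the highest early value for 24 of the 45 members (53.3%), whereas it held the highest early value for 23.0% of all genes tested. In the late group, late library 4 held the highest late value for 19 members (42.2%), against 18.3% of all genes tested. The coefficient of variation of 31 members was larger in early than in late CCH, compared with 51.3% of all genes tested, and without early library 2 this held for 22 members and 46.2% of all genes. The median coefficient of variation of the members was 33.5% in early and 26.3% in late CCH, and 26.5% in early CCH without library 2.

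The summed macrophage markers were likewise highest in early library 2. So were the summed fibroblast markers (60438, against 7615 to 45798 in the other libraries) and neutrophil markers (9379, against 91.0 to 9002). The summed normalized read count of the macrophage markers was 3080, 12665, 4563, 2996 and 5921 in the early libraries and 12264, 6870, 7362, 9787 and 11160 in the late libraries. Of the 12 markers 11 were tested and 8 had a log2FC above 0, with a median of 0.96, and none was called with BY in limma, although 6 had an unadjusted p of at most 0.05, BH called 2, DESeq2 called 1 (MSR1) and edgeR 0. MARCO did not pass the filter on low values. For comparison, 30.9% of all genes tested had such an unadjusted p, and BH called 5.53% higher and 3.52% lower. The single markers differed in early library 2. There CD163 (1137) was above every late value (144 to 306). So were CD14 (682, highest late value 521), MRC1 (566, 197), CSF1R (2198, 1679), VSIG4 (482, 382) and FCGR1A (352, 126). By contrast, MSR1 (71.6) and AIF1 (457) were below every late value (73.6 to 530 and 481 to 755). C1QA, C1QB, C1QC and MARCO lay within the late range. In the same library CTSD was at 472, against 1254 in the lowest late library, and ACP2 was at 38.1 against 71.3. For LGMN, GRN and PSAP the value of early library 2 lay within or above the late range. The part of macrophages, fibroblasts and neutrophils in the lysosomal values was not tested.

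Beyond the 45 members, 108 genes of lysosomal function in 6 lists were examined, of which 104 were in the table and 99 passed the filter. Of these 99 genes 41 had a log2FC above and 58 below 0, with a median of -0.09, and 2 were called higher and 2 lower, so that 4 of 99 (4.04%) passed the test, against 2.17% of all genes tested. The transcription factor TFEC, a relative of TFEB expressed in myeloid cells, was at 13.3, 97.7, 47.0, 35.4 and 46.2 in early and 388, 265, 136, 518 and 263 in late CCH. TFEC thus rose where TFEB did not pass the test (log2FC 2.80, SE 0.46, BY adjusted p = 0.0356, limma), and every late value was above every early value. The call of TFEC held in 2 of the 10 fits that left out a library, without early library 2 and without late library 3. Of the other relatives, MITF and TFE3 had log2FC values of 0.98 and 0.37 and were not called in limma with BY or BH, in edgeR or in DESeq2. In the same list of regulators the GTPase RRAGD, which links nutrients to TFEB, had a log2FC of 1.90 (SE 0.39), with an adjusted p of 0.0793 with BY and 0.00793 with BH in limma, and DESeq2 called it. LAMTOR2, a part of the lysosomal anchor of that signal, was lowest in the list at -0.78 and was under the fold threshold.

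Among the other hydrolases, HYAL1, a hyaluronidase, rose from 13.7 ± 6.36 to 85.1 ± 32.9 (log2FC 2.57, SE 0.43, BY adjusted p = 0.0383, limma). HGSNAT, the acetyltransferase of heparan sulfate breakdown, fell from 177 ± 19.3 to 71.8 ± 16.1 (log2FC -1.32, SE 0.20, BY adjusted p = 0.0219, limma). The other 20 tested genes of that list were not called with BY in limma or in edgeR, whereas BH also called CTSW (log2FC 2.56) and PLD3 (log2FC 1.28) and DESeq2 also called PLD3. In both HYAL1 and HGSNAT the stages did not overlap. Of the 10 fits that left out a library, 3 called HYAL1 (BY adjusted p 0.0186 to 0.141, limma) and 5 called HGSNAT (0.0326 to 0.0838).

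The next list holds 13 genes of mannose 6-phosphate tagging and of the sorting of lysosomal proteins, not all of them specific to mannose 6-phosphate. Of these 13 genes, 10 had a log2FC below 0. SORT1, which encodes sortilin, a sorting receptor of progranulin, prosaposin and other lysosomal proteins, fell from 264 ± 106 to 67.8 ± 20.1 (log2FC -1.93, SE 0.27, BY adjusted p = 0.018, limma). Its values were 450.3, 253, 195, 206 and 217 in early and 66.6, 55.2, 89.1, 85.9 and 42.0 in late CCH, with no overlap, and 7 of the 10 fits that left out a library called it (BY adjusted p 0.0205 to 0.0629, limma). IGF2R, the large mannose 6-phosphate receptor, had the highest log2FC of the list at 1.38 (SE 0.33) and was not called with BY in limma (adjusted p = 0.153) or in edgeR, but was called in DESeq2 (adjusted p = 0.0164) and with BH.

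The remaining lists held no call with BY in limma. As a background for their counts, 30.9% of all genes tested had an unadjusted p of at most 0.05. With BH, 5.53% of all genes were called higher and 3.52% lower. The 16 tested subunits of the vacuolar proton pump, which acidifies the lysosome, had log2FC values from -0.67 (ATP6V0E1) to 1.11 (ATP6V0C), with a median of -0.12, 6 of them at an unadjusted p of at most 0.05, 1 called with BH and 0 in edgeR or DESeq2. The 20 other membrane proteins ranged from -1.04 (LAPTM4A) to 1.31 (LAMP3), with a median of -0.07, 8 at an unadjusted p of at most 0.05, 1 called with BH, 0 in edgeR and 1, LAPTM4A, in DESeq2. The 14 genes of autophagy ranged from -0.83 (VPS18) to 0.66 (GABARAPL1), with 2 at an unadjusted p of at most 0.05 and 0 called with BH, in edgeR or in DESeq2.

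**Figure D5:**
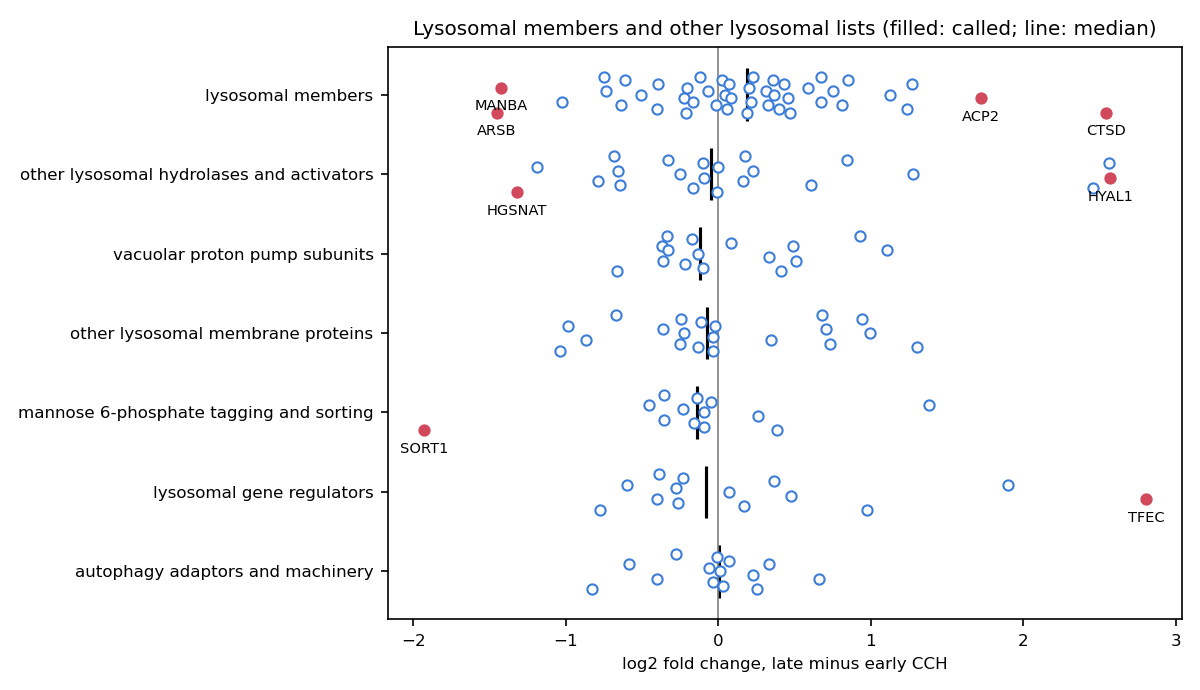
Log2FC (late minus early CCH) of each tested gene of the 45 lysosomal members and of 6 further lysosomal lists (rows), with filled points for genes that passed the test and a line for the median of each list. The medians lie between -0.14 and 0.19, and the called genes outside the members are TFEC and HYAL1 on the right and SORT1 and HGSNAT on the left.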

How the data were processed

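Total RNA of 10 FFPE samples was sequenced with QuantSeq 3′. According to the authors' methods and labels, reads were trimmed with Cutadapt, aligned with STAR to CanFam3.1 and counted with featureCounts in a pair of rounds, the second on genes extended by 2 kb at the 3′ end, and reads with several places were split. Tool versions and the strand setting are not given in the sources used here. The deposited values are a signal per gene and library, read counts that the authors divided by 1 size factor per library. Whole reads could be recovered from 100% of 166096 values above 0 (tolerance 0.001 of a read). Of 21 value columns 10 were used, and 11 match no sample. Column names show the stage but not the sample in the labels, so libraries are numbered in table order only to name them.

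The main test was limma 3.58.1 with a mean-variance trend (R 4.3.3) on log2(value + 1), for the 12397 genes that reached 10 in 5 or more libraries, with BY adjustment over all of them and both thresholds of the study. It was tested on simulated data. Each sample comes from a separate dog, and p-values measure the spread between these samples. Alternatives were other scalings (TMM, equal totals), pseudocounts, filters, adjustments, no fold threshold, edgeR 4.0.16 and DESeq2 1.42.0 on the recovered reads, and leaving out each library. Members and lists were chosen with earlier results of these data known. Values are given for members called, members whose log2FC was 1 or more in size at an unadjusted p up to 0.05, the highest and lowest log2FC of each role and list, and the 3 most abundant members; FUCA1, GLA, IDS, CTSB, CD68, LAMP1, LAMP2, MAN2B1, NR1H3, IFITM10, DDB2, RRAGD, MITF, TFE3, PLD3 and CTSW were added after their values were seen. Symbols are those of the table. The RefSeq table of assembly UU_Cfam_GSD_1.0, which held all 45 members, was used only for neighboring genes. CTSL, CTSV, ATP6V1G1, ZKSCAN3, CD207, GZMB and TPSB2 were not analysed here. The marker sums of cytotoxic lymphocytes (146 to 2571 in early, 2854 to 7367 in late libraries), B and plasma cells (537 to 805, 767 to 3081), fibroblasts (7615 to 60438, 10533 to 35601) and mast cells (39.7 to 150, 28.6 to 78.4) were also computed, and of the markers CD6 (higher) and FLT3 (lower in late CCH) were called.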

Additional observations from a re-analysis of the deposited data

Results flagged for a closer look

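In the early group, 1 library stood far from the other 4 in LGMN and in GRN. For LGMN, early library 2 was at 1241 and the others at 203 to 366, so that the gap to the nearest value was 0.844 of the whole range, against a critical value of 0.71 for 5 samples. For GRN, early library 2 was at 5004 and the others at 1842 to 2178, with a gap of 0.894 of the range. The gap was examined in 36 groups of 5 values, of which chance alone would pick about 1 in 20, or 1.8. These groups did not cover every member. Early library 2 was also far above the other early libraries in members not flagged here. Examples are SCARB2 (789 against 331 to 417), CTSK (1323 against 391 to 595) and ASAH1 (431 against 81.9 to 168). Both flagged cases fall on the same library, which also held the highest sums of macrophage (12665), fibroblast (60438) and neutrophil (9379) markers of the 10 libraries. The part of these markers was not tested.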

How the results depend on the processing

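CTSD was called in every alternative run, including the 10 that left out a library. The members called higher numbered 2 and became 1 with a pseudocount of 0.5, with no filter and with edgeR, and 4 with BH. The members called lower numbered 2 and became 1 with a pseudocount of 0.5 0 with equal totals, with no filter and with edgeR, and 3 with DESeq2 and with BH, both of which add TFEB. Leaving out 1 library gave 1 to 2 higher and 0 to 2 lower. ACP2, ARSB and MANBA thus lie at the threshold: with edgeR their BY adjusted p was 0.0586, 0.0595 and 0.062, and with DESeq2 1.26e-04, 1.20e-04 and 2.20e-04. Calls in the other lysosomal and marker lists numbered 6, and 10 with a pseudocount of 5, 23 with DESeq2, 32 with BH and 0 to 9 without 1 library. Over all genes 269 were called, 177 with edgeR, 810 with DESeq2, 1121 with BH and 49 (without early library 5) to 260 (without early library 2) without 1 library. Of the calls over all genes 48.7% were higher in late CCH, 64.0% with equal totals, 61.1% with BH, 59.3% with DESeq2, and 28.8% (without late library 4) to 60.3% (without early library 3) without 1 library, with 33.2 to 34.5% without late library 1, 2, 3 or 5. The median log2FC of the members was 0.06 to 0.27 without 1 library. CTSA, which was not called, ranged in log2FC from -0.049 (without early library 4) to 0.18 (without early library 2), and was also below 0, at -0.02, without early library 3. The share of reads was 0.909 to 1.12% in early and 1.25 to 1.36% in late CCH without 1 library. Without PSAP the mean share was 0.926% in early and 1.08% in late CCH. The cause of these shifts was not tested. No paired analysis was possible because the stages come from different dogs and the table's columns show no replicate numbers. Genes with few reads, such as MCOLN1, are limited by depth.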
